A study of Homo sapiens with 6 samples.

Results

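The regions compared here were all regions of KDM3B and all regions of H3K9me2 that the study listed for HCT116 cells depleted of KDM3A and KDM3B. No region was selected by its measured value. There were 8046 KDM3B regions and 88855 H3K9me2 regions, together 96901 of the 126184 regions listed in the whole series. A region is a run of 100-bp windows in which immunoprecipitated DNA exceeded the input.

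HCT116 is a human colorectal cancer cell line in which the Wnt pathway is switched on by a mutant form of β-catenin. The study set cells with stable knockdown of both demethylases (HCT116/ABsh-1) beside cells with a scrambled control (HCT116/Scrsh), whereas the deposited description of the treatment names siRNA. In each population, chromatin was immunoprecipitated once with an antibody to KDM3B and once with an antibody to H3K9me2, and an input library was sequenced. All cells were grown for 2 days in medium with 10% serum. KDM3A was knocked down together with KDM3B, so each value describes their joint depletion in 1 cell line.

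KDM3A and KDM3B are JmjC-domain demethylases that remove methyl groups from lysine 9 of histone H3, with a preference for the mono- and dimethylated forms. H3K9me2, the dimethylated form, is deposited mainly by EHMT1 and EHMT2 and is associated with repressed chromatin, often in broad domains. An immunoprecipitation of a demethylase marks places where the enzyme was cross-linked to DNA, whereas that of its substrate marks nucleosomes on which the methyl groups were present. Antibody and library both differ between the KDM3B list and the H3K9me2 list, with 1 library on each side, and these cannot be told apart. Values are therefore given side by side without a test between libraries. Intervals in parentheses are 95% Wilson intervals, which cover counting error alone and treat neighbouring regions as independent. How far KDM3B protein fell was not measured by these lists, and the depth of the libraries is unknown.

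The sequences under 4 regions give examples of the DNA in the lists. KDM3B is represented by a region upstream of a transcription start site (TSS), and H3K9me2 by a region upstream of a TSS and a region in an intron, taken from the 3 with the highest score of that kind among those of at most 300 bp outside untranslated regions, and the last sequence is an overlap of both kinds. All are plus-strand hg19 sequence with each CpG dinucleotide in capitals. The KDM3B region chr4:174290901-174291200 was centred at −1055 bp from the canonical TSS of SAP30 (negative distances are upstream), a subunit of the SIN3 histone deacetylase complex, and held 33 CpGs. The H3K9me2 region chr16:88448501-88448800 was centred at −717 bp from the TSS of ZNF469 and had a higher GC content (63.7% against 58.7% at SAP30) but held 12 CpGs. The H3K9me2 region chr16:14580801-14581000, an intronic region of 200 bp whose nearest canonical TSS was that of PARN, a poly(A)-specific ribonuclease, held 11. Regions of a kind varied: another high-scoring KDM3B region, chr11:85195001-85195200, nearest to DLG2, held 11 CpGs in 200 bp, as many as the H3K9me2 region nearest to PARN. The overlap chr17:70553601-70553900 held 6 CpGs among long runs of the CA dinucleotide. No stretch of 50 bp within these 4 sequences occurred elsewhere on the 24 assembled chromosomes of hg19. Copies in sequence outside these chromosomes, also of the region nearest to DLG2, were not sought.
KDM3B, upstream of SAP30: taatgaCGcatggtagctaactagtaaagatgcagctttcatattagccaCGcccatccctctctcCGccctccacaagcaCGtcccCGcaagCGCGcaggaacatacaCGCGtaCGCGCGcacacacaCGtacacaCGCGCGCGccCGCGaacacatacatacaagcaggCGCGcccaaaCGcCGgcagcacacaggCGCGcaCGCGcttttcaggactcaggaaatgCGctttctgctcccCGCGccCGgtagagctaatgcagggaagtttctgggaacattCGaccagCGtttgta
H3K9me2, upstream of ZNF469: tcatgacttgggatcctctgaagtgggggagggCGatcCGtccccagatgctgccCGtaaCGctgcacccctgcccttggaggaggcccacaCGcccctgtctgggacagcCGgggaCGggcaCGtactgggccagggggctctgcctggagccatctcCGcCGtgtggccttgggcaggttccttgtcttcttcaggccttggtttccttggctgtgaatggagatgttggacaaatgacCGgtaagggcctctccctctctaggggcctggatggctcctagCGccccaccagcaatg
H3K9me2, intronic, nearest to PARN: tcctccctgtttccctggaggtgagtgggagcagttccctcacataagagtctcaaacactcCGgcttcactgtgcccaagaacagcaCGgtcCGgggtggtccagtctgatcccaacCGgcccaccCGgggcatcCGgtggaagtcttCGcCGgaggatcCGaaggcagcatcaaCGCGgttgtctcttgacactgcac
Both kinds, shared bases on chromosome 17: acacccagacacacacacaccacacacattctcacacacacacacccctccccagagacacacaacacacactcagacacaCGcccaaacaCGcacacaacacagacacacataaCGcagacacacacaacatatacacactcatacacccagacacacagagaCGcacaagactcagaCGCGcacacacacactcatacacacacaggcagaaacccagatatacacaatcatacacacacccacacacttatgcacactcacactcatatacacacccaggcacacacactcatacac

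In the depleted cells, KDM3B regions were short and isolated, whereas H3K9me2 regions were wider and came in groups. Of the KDM3B regions, 61.3% (60.2–62.3) were a single 100-bp window, against 41.3% (41.0–41.6) of the H3K9me2 regions. The mean width was 163 bp (SD 107 over regions) for KDM3B and 311 bp (SD 345) for H3K9me2. Regions of 1 kb or more numbered 7 (0.0870%) for KDM3B and 4333 (4.88%) for H3K9me2, and those H3K9me2 regions held 22.6% of all H3K9me2 bases. The widest KDM3B region spanned 2800 bp and the widest H3K9me2 region 7100 bp. The median gap to the next region of the same kind was 123700 bp for KDM3B and 2300 bp for H3K9me2, and 2.07% and 30.03% of the gaps, respectively, were shorter than 1 kb. There were 11.0 H3K9me2 regions for each KDM3B region, and the part of list length in these gaps was not tested. Joining regions of a kind that lay under 1 kb apart left 7880 KDM3B and 62175 H3K9me2 regions, and the widest of them reached 3300 and 35900 bp.

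**Figure D1:**
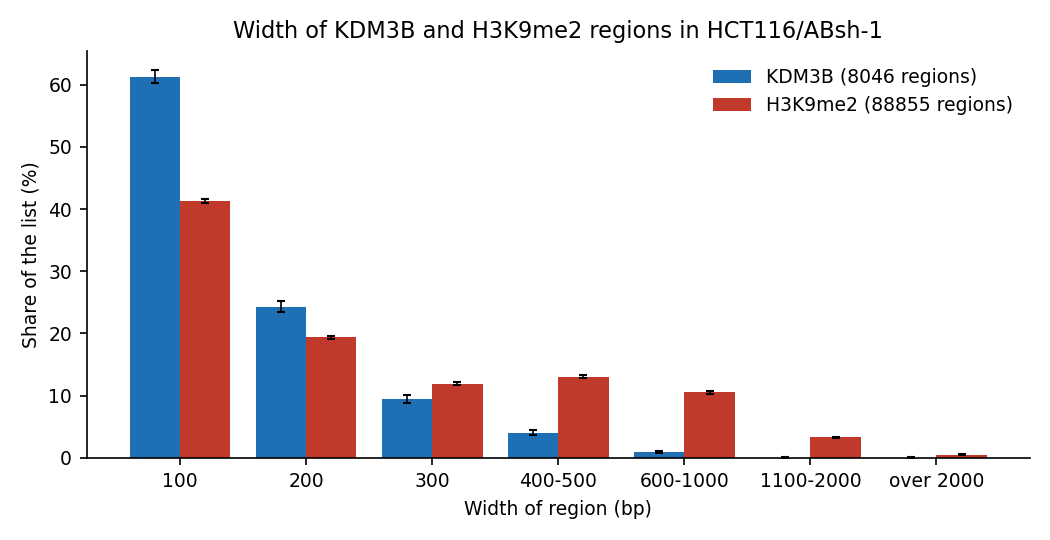
Share of the regions of each kind (y axis, percent) by width (x axis, bp) for KDM3B and H3K9me2 in KDM3A/B-depleted cells, with 95% Wilson intervals. Single windows made up 61.3% of KDM3B and 41.3% of H3K9me2 regions, and the share of H3K9me2 exceeded that of KDM3B in each class of 300 bp or more.

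Both kinds were concentrated in promoters, KDM3B more so, and H3K9me2 stood out over coding exons. Taking as promoter the 3 kb upstream of any annotated transcript, 3061 KDM3B centres (38.0%, 37.0–39.1) and 22464 H3K9me2 centres (25.3%) were promoter-located, against 10.8% of the assembled genome. Coding exons, which make up 0.476% of the genome once the classes of higher priority are set aside, held 46 KDM3B centres (0.572%) and 3581 H3K9me2 centres (4.03%). The H3K9me2 share was thus 8.46 times that of the genome and the KDM3B share 1.20 times. The 3 kb downstream of transcripts held 11.4% of KDM3B and 15.5% of H3K9me2 centres. Introns held 25.8% and 34.0%, and both were below the 44.9% of the genome. Intergenic sequence held 21.1% of KDM3B and 16.7% of H3K9me2 centres, against 32.7% of the genome.

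**Figure D2:**
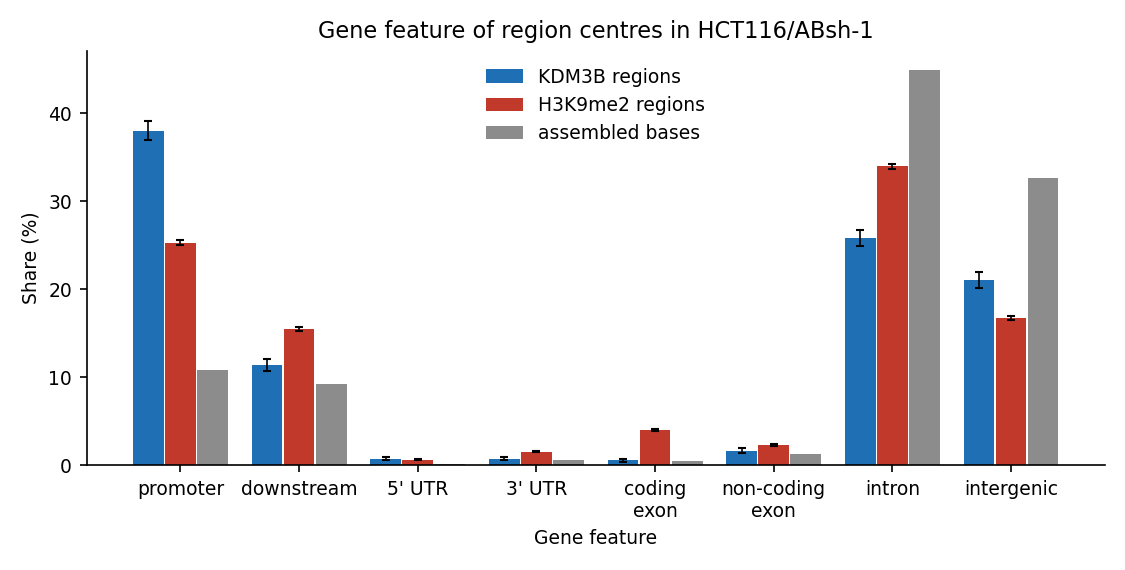
Share of region centres (y axis, percent) by gene feature (x axis) for KDM3B and H3K9me2 in KDM3A/B-depleted cells, with 95% Wilson intervals, beside the share of assembled hg19 bases in the same class. Promoters held 38.0% of KDM3B and 25.3% of H3K9me2 centres, and coding exons 0.572% and 4.03%.

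The regions also took different positions around the TSS. Within 500 bp of a TSS lay 30.2% (29.2–31.3) of KDM3B centres and 15.1% (14.9–15.4) of H3K9me2 centres, but within 5 kb the shares came to 57.0% and 53.9%. KDM3B lay mostly just upstream. Of the 2587 KDM3B centres within 5 kb of the canonical TSS of a protein-coding gene, 64.5% (62.7–66.3) were upstream, and the 500 bp before the TSS alone held 1079, compared with 454 in the 500 bp after it. H3K9me2 lay mostly downstream: of 17193 centres in the same window, 63.0% (62.3–63.7) were past the TSS, with 1050 in the 500 bp before it and 1630 in the 500 bp after it. Within the bodies of 14039 genes divided into deciles, the first decile held 22.1% of the 2858 KDM3B centres and the last 13.5%, whereas H3K9me2, with 51057 centres, had 11.6% in the first decile and 15.0% in the last.

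A smaller share of the TSSs with KDM3B than of the TSSs without it had H3K9me2. A KDM3B centre lay within 1 kb of 1979 of the 19881 canonical TSSs. Of these, 212 (10.7%, 9.43–12.2) also had an H3K9me2 region within 1 kb, against 4780 of the 17902 TSSs without KDM3B (26.7%, 26.1–27.4). Within 500 bp the shares were 4.60% and 18.6%. H3K9me2 covered 0.568% of the bases in the innermost 200 bp on each side of TSSs with KDM3B and 5.11% around the others. Its cover was highest 1500 to 1600 bp downstream of the TSSs with KDM3B, at 3.54%, and 500 to 600 bp downstream of the TSSs without it, at 6.86%.

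**Figure D3:**
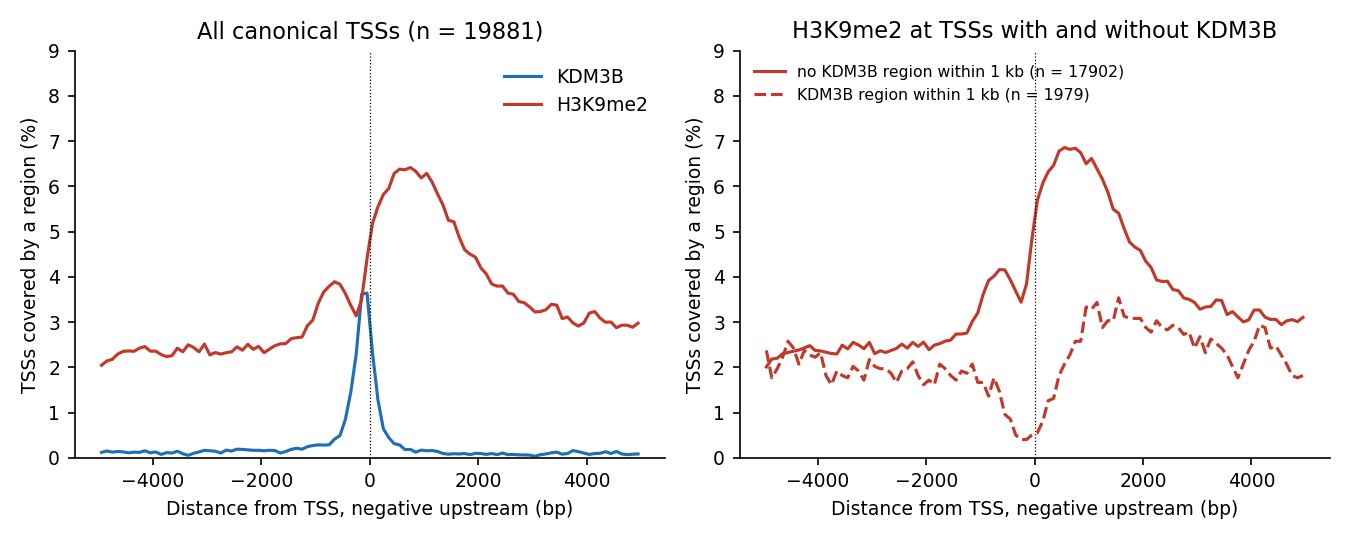
Share of canonical TSSs covered by a region (y axis, percent) against distance from the TSS (x axis, bp, negative upstream), on the left for KDM3B and H3K9me2 at all 19881 TSSs and on the right for H3K9me2 at TSSs with (dashed, 1979) and without (solid, 17902) a KDM3B centre within 1 kb. Around the TSS the dashed line runs below the solid one, and their highest values are 3.54% and 6.86%.

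CpG-island-like sequence moved with the presence of KDM3B at a TSS. A 500-bp window on the TSS was counted as CpG-island-like when its GC content was at least 50% and its observed-over-expected CpG ratio at least 0.6. This held for 92.5% of TSSs with KDM3B and for 64.99% of those without. Among CpG-island-like TSSs, H3K9me2 lay within 1 kb of 10.1% with KDM3B and 27.2% without it. Among the other TSSs the shares were 18.2% (12.9–25.2) and 25.8% (24.7–26.9), and these intervals overlap. In each quintile of TSSs by GC content the share was lower with KDM3B. In the lowest quintile, up to 54.2% GC, it was 5.69% (2.78–11.3) against 7.91% (7.11–8.80), a gap smaller than the counting error. In the other quintiles it was 5.16% against 27.4%, 8.38% against 30.8%, 12.5% against 31.4% and, from 73.2% GC upwards, 20% against 38.1%.

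**Figure D4:**
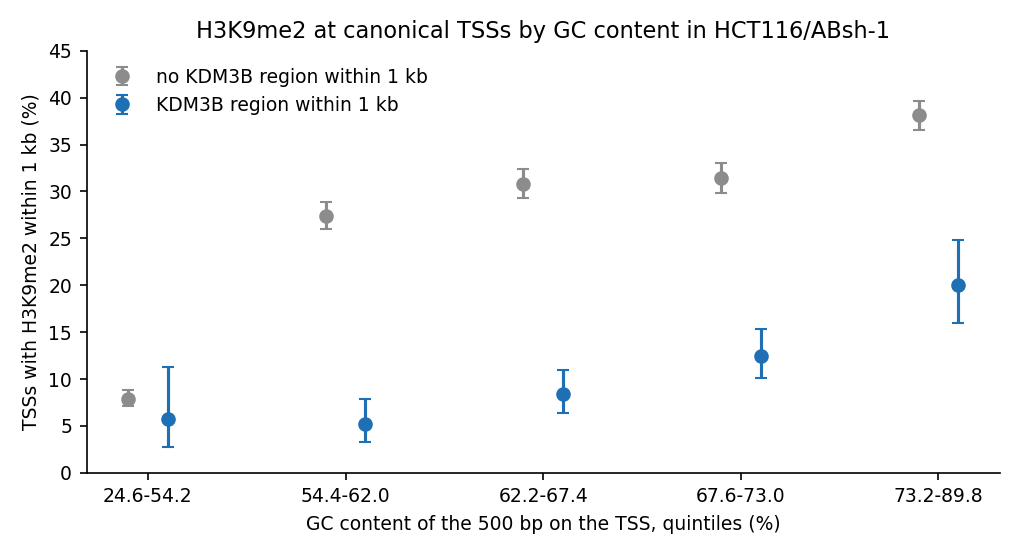
Share of canonical TSSs with an H3K9me2 region within 1 kb (y axis, percent) by quintile of GC content of the 500 bp on the TSS (x axis), for TSSs with and without a KDM3B centre within 1 kb, with 95% Wilson intervals. The share runs from 5.69% to 20% with KDM3B and from 7.91% to 38.1% without it, and the intervals overlap in the lowest quintile.

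The lists differed in base composition. Mean GC content was 55.8% (SD 10.5 over regions) for KDM3B and 61.4% (SD 6.35) for H3K9me2, and 40.9% for the genome. Regions of 60% GC or more made up 36.1% of KDM3B and 68.9% of H3K9me2, and regions under 40% GC made up 5.62% and 0.872%. In spite of its lower GC content, KDM3B lay more often in CpG-island-like windows, at 27.6% (26.7–28.6) against 10.6%. For promoter regions alone these shares were 57.6% and 17.8%, and the median observed-over-expected CpG ratio was 0.708 against 0.36.

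Short sequences that transcription factors can bind were counted in the 500 bp on each centre, on both strands. GGGCGG, the core of the GC box bound by SP1-type factors, was found in 35.4% of KDM3B windows, 36.8% of H3K9me2 windows and 6.53% of windows of that length tiled over the genome. At a matched GC content of 60 to 65% it was found in 69.5%, 42.3% and 42.1%. TGCGCA, the core of the NRF1 site, was found in 13.9%, 6.68% and 6.51% of the windows in that GC range. Between 45 and 50% GC, H3K9me2 windows exceeded KDM3B windows for both sequences. There GGGCGG was found in 12.8%, 20.6% and 10.0%, and TGCGCA in 3.02%, 3.62% and 1.89%. TGANTCA, the AP-1 site, was found in 17.01% of all KDM3B windows, 9.08% of all H3K9me2 windows and 15.0% of the genome's windows, and between 45 and 50% GC in 21.8%, 11.4% and 15.0%. CTTTGAT or CTTTGAA, the core bound by TCF/LEF factors, was found in 13.5% of KDM3B, 8.49% of H3K9me2 and 19.6% of the genome's windows. Between 45 and 50% GC it was found in 17.1%, 14.3% and 14.1%, so the order of KDM3B and the genome turned in this range. That order also turned in most other ranges, as from 35 to 40% (23.8% of KDM3B and 23.3% of the genome's windows) and from 40 to 45% (20.2% and 18.7%). The only exceptions were the lowest range of GC content (21.3% and 25.3%) and 60 to 65% (5.47% and 5.68%). A match is a description of the letters and does not show that a factor was bound.

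Along the genome both kinds followed GC content, H3K9me2 more steeply. KDM3B regions were densest on chromosomes 19 (9.43 per Mb) and 17 (7.25 per Mb), whereas H3K9me2 regions were densest on chromosomes 22 (169 per Mb) and 19 (121 per Mb). Chromosome X was lowest for both, at 0.781 and 4.85 per Mb. Over the genome there were 11.0 H3K9me2 regions for each KDM3B region, and this number ranged from 5.94 on chromosome 6 to 28.6 on chromosome 22. The Spearman correlation of the densities over 24 chromosomes was 0.874, and that of the counts over 2810 bins of 1 Mb was 0.712. Bins share base composition and gene density, so these are descriptions. From the lowest to the highest quintile of bins by GC content, the number of H3K9me2 regions per KDM3B region was 3.35, 2.48, 3.69, 7.43 and 17.5. H3K9me2 was also more frequent towards chromosome ends. Within 5 Mb of an end lay 30.1% (29.8–30.4) of its centres, against 10.8% (10.1–11.5) of KDM3B centres and 7.11% of assembled bases.

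The regions of the lists were often near one another and seldom coincided. Of the KDM3B regions, 95 (1.18%, 0.967–1.44) overlapped an H3K9me2 region, while H3K9me2 covered 0.966% of the assembled genome and 4.19% of all TSSs lay in it. For promoter-located KDM3B regions the share was 1.11%, compared with 2.45% of promoter bases. A region counted as overlapping when a single base was shared, which favours regions over single bases and TSSs. By bases, 1.03% of the sequence in KDM3B regions was shared. With increasing distance the order of KDM3B regions and TSSs changed. H3K9me2 lay within 500 bp of 6.92% of KDM3B regions and 13.4% of TSSs, within 1 kb of 13.3% and 18.8%, within 5 kb of 37.3% and 33.2%, and within 10 kb of 48.6% (47.5–49.7) and 41.0%. Of assembled bases, 3.64%, 5.50%, 13.9% and 20.1% lay within the same distances. The median distance from a KDM3B region to the nearest H3K9me2 region was 10801 bp, and it was 8501 bp for promoter, 15901 bp for intron and 14501 bp for intergenic KDM3B regions. In the other direction the median was 54601 bp.

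Around KDM3B centres, cover by H3K9me2 was 0.926% in the innermost 200 bp, 1.60% from 200 to 500 bp, 2.49% from 500 bp to 1 kb and 3.002% from 1 to 2 kb, and 3.15% from 5 to 10 kb. KDM3B cover around H3K9me2 centres likewise went from 0.0526% in the innermost 200 bp to 0.145% between 2 and 5 kb. A low centre with higher flanks was thus seen from either side. GC content moved with the distance. KDM3B regions overlapping or within 1 kb of H3K9me2 (1068) had a mean GC content of 61.9% and were promoter-located in 42.9%, whereas those over 100 kb away (1110) had 51.1% and 29.8%. At a window GC content under 45%, 22.3% of KDM3B regions had H3K9me2 within 10 kb, against 10.6% of 500-bp tiles of the genome in that range. From 55 to 65% the order was the other way, with 65.2% against 73.8%.

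**Figure D5:**
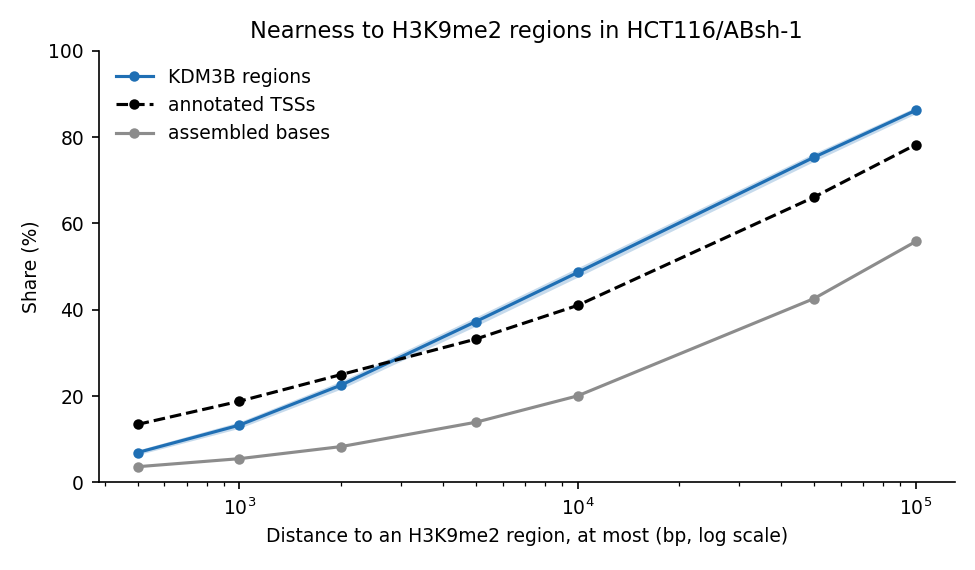
Cumulative share (y axis, percent) of KDM3B regions, annotated TSSs and assembled bases that lie within a given distance (x axis, bp, log scale) of an H3K9me2 region in KDM3A/B-depleted cells. The band on the KDM3B line is the 95% Wilson interval. At 500 bp the KDM3B share (6.92%) is below that of TSSs (13.4%), and at 10 kb it is above it (48.6% and 41.0%).

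The overlaps were small. There were 97 of them, involving 95 KDM3B regions and 97 H3K9me2 regions, and they shared 13500 bases, or 1.03% of all bases in KDM3B regions. In 72 overlaps exactly 1 window of 100 bp was shared. Promoters held 34 of the overlapping KDM3B regions, introns 28 and intergenic sequence 21, and chromosome 17 had the most with 14. Long unassembled gaps (over 100 kb) lay within 1 Mb of 14 of the 95 (14.7%, 8.99–23.2), against 279 of all 8046 KDM3B regions (3.47%). The KDM3B region with the highest score in the list, 2800 bp at chr6:58776601-58779400, was among those 14. This region shared 300, 100 and 200 bp with separate H3K9me2 regions. In the shared 300 bp, 33.1% of the 50-bp stretches occurred elsewhere on the 24 chromosomes searched. The part of such copies in the score was not tested. Over all regions, the 50 bp at the centre had a copy elsewhere for 0.423% of KDM3B and 0.581% of H3K9me2 regions, against 7.90% of positions spaced 10 kb apart, and the authors kept reads with a unique position.

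Overlaps near a TSS, of which 24 lay within 5 kb of a canonical TSS, are illustrated by 4 genes chosen after their values were seen. At PMF1, a subunit of the kinetochore MIS12 complex, a KDM3B and an H3K9me2 region spanned the same 400 bp in an intron, 3602 bp downstream of the TSS. LDB1, which bridges LIM-domain transcription factors, had 1 overlap at −1425 bp and another at 2475 bp from its TSS, each of 100 bp. At INSR, the insulin receptor, 100 bp were shared 975 bp into the gene. At COL6A1, a chain of collagen VI, the KDM3B region of 900 bp centred at −834 bp from the TSS shared its outermost 100 bp with an H3K9me2 region of that width. Apart from PMF1, each of these overlaps was thus a single window. The KDM3B regions had scores of 353 at PMF1, 94 at COL6A1, 11 and 10 at LDB1 and 9 at INSR. The median score was 14 for overlapping KDM3B regions and 17 for all KDM3B regions.

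Genes were then sorted by whether a region of either kind lay within 5 kb of any of their TSSs. Of 20163 protein-coding genes, 19.2% had a KDM3B region, 49.2% an H3K9me2 region and 11.0% both. These shares are the background for each gene group described here. In numbers, 1662 genes had KDM3B only, 2211 both, 7719 H3K9me2 only and 8571 neither. H3K9me2 was found at 57.1% (55.5–58.6) of the genes with KDM3B and at 47.4% (46.6–48.2) of those without. This difference depended on the setting. The ratio of the shares with and without KDM3B was 1.20 here and 1.07 within 2 kb of any TSS. It was 1.25 with the 50% of regions of highest score and 1.44 with the shortened H3K9me2 list. With 1 canonical TSS per gene (19881 genes, of which 1201 had both), the shares were 41.2% and 41.0%. In each quintile of these genes by the GC content of the 10 kb on the TSS, the share was lower with KDM3B, from 5.59% against 10.7% in the lowest quintile to 85.0% against 88.8% in the highest.

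The classes differed in composition and gene length. The mean GC content of the 10 kb on the canonical TSS was 45.8% for genes with KDM3B only, 53.6% with both, 51.5% with H3K9me2 only and 44.04% with neither. The median gene length was 35151, 17463, 21300 and 33149 bp, respectively. Of the genes with KDM3B only, 91.0% had a single KDM3B region. The median number of H3K9me2 bases was 500 both for genes with both kinds and for genes with H3K9me2 only, so the presence of KDM3B in these 10 kb went with no difference in that median.

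In genes with both, the nearest KDM3B region was mostly upstream of the TSS and the nearest H3K9me2 region mostly downstream. Taking the region of each kind nearest to the TSS in the 1201 genes, KDM3B was upstream in 66.5% (63.8–69.1) and H3K9me2 in 42.8%. KDM3B upstream with H3K9me2 downstream was seen in 481 genes (40.1%) and the reverse in 196 (16.3%), and in the other genes both lay on the same side. KDM3B was the closer in 57.2%, and it lay within 500 bp of the TSS in 41.9%, against 19.2% for H3K9me2. The median distance between their centres was 2300 bp.

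The genes with the most bases of each class within 5 kb on either side of the canonical TSS were of different kinds. Among the 8 with KDM3B only, 4 encode replication-dependent histones. H2BC4 and H2AC6, a divergent pair on chromosome 6, shared 2 regions that together covered 1300 bp, H3C2 had 1274 bp and H2BC21 900 bp. ZDHHC5, a palmitoyltransferase, had a single region of 1000 bp centred at −586 bp from its TSS. NDUFAF3, an assembly factor of respiratory complex I, and its neighbour DALRD3 shared 2 regions of 1000 bp in all.

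The 8 genes with H3K9me2 only had 6801 to 7900 H3K9me2 bases in the same 10-kb window, and none is a histone gene. NKPD1 headed them with 7900 bp, most of it in the widest region of the list, chr19:45661601-45668700, which spanned the TSS. FTCD, an enzyme of histidine and folate metabolism, had 7308 bp. PTGDS, a prostaglandin D2 synthase, had 7301 bp and shared its regions with an overlapping gene listed as ENSG00000284341. LY6D and SLURP2, both of the Ly6 family of surface and secreted proteins on chromosome 8, had 7300 and 6801 bp. SOHLH1, a germ-cell transcription factor, had 7201 bp, and PABPN1L, a poly(A)-binding protein, 6801 bp. H3K9me2 covered most of each of these windows. The rule that chose the genes asked for the most H3K9me2 bases and for no KDM3B region there, so neither trait is a separate result.

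The 8 genes with both kinds, ranked by the smaller of their KDM3B and H3K9me2 lengths, carried more H3K9me2 than KDM3B. NR4A3, an orphan nuclear receptor, had 3 KDM3B regions upstream of the TSS (1100 bp in all) and 1 H3K9me2 region of 2100 bp centred 2983 bp downstream. At DLX3, a homeobox gene, the values were 800 bp of KDM3B and 2700 bp of H3K9me2. At MVD, an enzyme of the mevalonate pathway, a KDM3B region of 900 bp was centred 49 bp past the TSS and abutted an H3K9me2 region of 200 bp, centred at 599 bp. The others were COL6A1 (900 and 2617 bp), RPS19BP1 (900 and 1100 bp), AHDC1 (755 and 1200 bp), EPHB3 (700 and 1173 bp) and SCAMP4 (700 and 900 bp).

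Replication-dependent histone genes, which are transcribed in S phase from clusters, had the highest share of genes with KDM3B among the 28 groups after the AP-1 factors. Of 64, 40 had KDM3B (62.5%, against 19.2% of all protein-coding genes) and 13 had H3K9me2 (20.3%, against 49.2%), and 38 had KDM3B only while 2 had both. On chromosome 6, 34 of 51 had KDM3B and 11 had H3K9me2. Neighbouring histone genes share regions, so they are not independent. Cytosolic ribosomal protein genes leaned the same way, with KDM3B at 34 and H3K9me2 at 21 of 81, and 25 with KDM3B only. Complex I subunits (11 and 14 of 37) and proteasome subunits (10 and 12 of 43) had less H3K9me2 than the genes at large and KDM3B at 29.7% and 23.3%. The AP-1 factors, the JUN, FOS and related leucine zipper proteins, had KDM3B at 7 and H3K9me2 at 5 of 10.

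Genes of developmental regulators, ion channels and collagens had H3K9me2 in larger shares than the genes at large. Of 39 HOX genes, which set identity along the body axis, 38 had H3K9me2 and 10 had KDM3B, and none had KDM3B only. Their KDM3B share, 25.6%, was also above that of all protein-coding genes. HOXB3 had 800 bp of KDM3B and 6300 bp of H3K9me2 around its TSSs. Forkhead, SOX and PAX factors had H3K9me2 at 64 and KDM3B at 12 of 80. Voltage-gated calcium channel subunits had H3K9me2 at 25 and KDM3B at 4 of 26, with 10454 bp of H3K9me2 at CACNA1H, and potassium channels at 76 and 13 of 94. Collagens had H3K9me2 at 36 and KDM3B at 8 of 44. These groups had 80.0 to 97.4% of their genes with H3K9me2. Their mean GC content in the 10 kb on the TSS was 48.1 to 52.8%, against 47.4% for all protein-coding genes, and the part of GC content in these counts was not tested.

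Some families were below the genes at large for both kinds. Olfactory receptor genes, with a mean GC content of 38.0%, had KDM3B at 5 and H3K9me2 at 22 of 399. Clustered protocadherins had 1 and 16 of 53, ZNF zinc finger genes 69 and 166 of 508, and keratins, structural proteins of epithelia, 6 and 22 of 55. With windows on any TSS, the following groups were at or above the genes at large for both kinds. Integrins had KDM3B at 6 and H3K9me2 at 18 of 26, ADAM and ADAMTS proteases at 9 and 27 of 39, and solute carriers at 65 and 216 of 338. In these 3 groups the KDM3B share lay between 19.2 and 23.1% and the H3K9me2 share between 63.9 and 69.2%. The 19.2% of the solute carriers was the share of all protein-coding genes. Around the canonical TSS alone, KDM3B was at 1 of 26 integrins, 6 of 39 proteases and 45 of 338 solute carriers. Of all genes, 14.7% had it there. Cell cycle genes, again with any TSS, had 7 and 14 of 26. Genes of the intestinal epithelium, with 3 and 12 of 21, were below the genes at large for KDM3B (14.3%) and above them for H3K9me2 (57.1%).

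In the canonical Wnt pathway, Wnt ligands bind Frizzled and LRP receptors, the complex that degrades β-catenin is inhibited, and β-catenin joins TCF/LEF factors on target genes. Of 19 ligand genes, 15 had H3K9me2 (78.9%, against 49.2% of all protein-coding genes) and 6 had KDM3B (31.6%, against 19.2%). Each of the 6 also had H3K9me2. Around the canonical TSS alone, KDM3B was at 3 and H3K9me2 at 15 of the 19 ligand genes. Of all genes, 14.7% and 41.0% had them there. WNT3 had 400 bp of KDM3B and 8853 bp of H3K9me2, and WNT7B 600 and 3348 bp. Of the 12 receptor genes, 7 had H3K9me2 (58.3%) and 2 KDM3B (16.7%), near the shares of the genes at large. Among 24 genes of β-catenin degradation and TCF/LEF transcription the counts were 16 (66.7%) and 6 (25%). GSK3B, the kinase that marks β-catenin for degradation, had 300 bp of KDM3B and no H3K9me2, and BCL9L, a β-catenin cofactor, 1400 bp and none. DVL1, which relays the signal from the receptor, had 5998 bp of H3K9me2 and no KDM3B. Of 10 secreted antagonists, 8 had H3K9me2 (80%) and 1 had KDM3B (10%).

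Among the 31 Wnt target genes both kinds were found at 8, KDM3B stood alone at 4, H3K9me2 alone at 13, and 6 had neither. KDM3B was thus at 38.7% and H3K9me2 at 67.7% of them. Of all protein-coding genes, 19.2% had KDM3B, 49.2% H3K9me2 and 11.0% both. Around the canonical TSS, DKK1, an antagonist that is itself a target, had 300 bp of KDM3B at 309 bp past the TSS and no H3K9me2. CCND1, cyclin D1, had KDM3B regions centred at −4424 and 2376 bp and an H3K9me2 region of 100 bp at 4326 bp. At MYC the KDM3B region of 200 bp was centred at −2177 bp and the H3K9me2 region of 100 bp at 2673 bp. AXIN2, a scaffold of the degradation complex, had 2 H3K9me2 regions at 1916 and 3116 bp past the TSS and no KDM3B in this window. At none of these 4 genes did the kinds overlap.

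Among the genes of the enzymes that write and remove H3K9 methylation, 5 of 9 methyltransferase genes had H3K9me2 (55.6%, against 49.2% of all protein-coding genes) and 1 had KDM3B (11.1%, against 19.2%). These few genes are near the shares of the genes at large. EHMT1 had 5157 bp of H3K9me2 and no KDM3B, and PRDM16 had 12744 bp over its TSSs. Of 11 H3K9 demethylase genes, 4 had KDM3B (36.4%) and 3 had H3K9me2 (27.3%). Over the windows of all their TSSs, KDM3A and KDM3B themselves had neither and JMJD1C had 100 bp of KDM3B. KDM4B, measured in the same way, had 500 bp of KDM3B and 17954 bp of H3K9me2. Subunits of the MLL and COMPASS complexes, which methylate lysine 4 of histone H3, had KDM3B at 3 and H3K9me2 at 7 of 13. These shares, 23.1% and 53.8%, are near those of the genes at large.

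The score deposited with each region has no stated definition and followed its width, with a Spearman correlation over regions of 0.807 for KDM3B and 0.937 for H3K9me2. For KDM3B, the promoter share was 40.8% in the highest quintile of scores, 30.2% in the middle quintile and 44.4% in the lowest, so it had no single direction. For H3K9me2 it went from 28.9% in the highest to 22.4% in the lowest quintile, coding exons went from 5.09% to 2.62%, and mean GC content from 62.7% to 59.1%. H3K9me2 lay within 10 kb of 53.5% of the KDM3B regions in the highest quintile and of 43.4% to 48.8% in the others. It overlapped 1.61% of the KDM3B regions in the highest quintile, 0.249% in the middle and 2.18% in the lowest.

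The control cells, measured in the same way, give the background of these pairings. In HCT116/Scrsh there were 17638 KDM3B and 11645 H3K9me2 regions. Widths had the other order there: single windows made up 53.8% of KDM3B and 72.9% of H3K9me2 regions. The mean widths were 182 and 145 bp, and the median gaps 56450 and 67800 bp. Of the KDM3B regions, 19 (0.108%, 0.0690–0.168) overlapped H3K9me2, which covered 0.0590% of the genome, and 8.18% had H3K9me2 within 10 kb, compared with 6.78% of assembled bases. In depleted cells these values were 1.18%, 0.966%, 48.6% and 20.1%. In each pair a share of regions stands beside a share of bases. With 1 canonical TSS per gene, H3K9me2 in control cells was found at 3.37% of genes with KDM3B and 7.22% of those without, against 41.2% and 41.0% in depleted cells. Of the 97 overlaps in depleted cells, the shared bases lay in a KDM3B region of control cells in 20 and in an H3K9me2 region of control cells in 4. The lists of the populations differed in length in opposite directions, depletion and library cannot be told apart, and no test of these differences was possible.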

How the data were processed

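KDM3B, H3K9me2 and input were each sequenced once in HCT116/ABsh-1 and once in HCT116/Scrsh. The authors used Bowtie to place 50-bp reads on hg19, required a single position with 2 or fewer mismatches, counted 1 read per position and compared 100-bp windows with the input by a Poisson test. Their methods ask for 2 neighbouring windows, whereas the deposited lists also hold regions of a single window. The deposited positions are hg19 coordinates, counted from 1 on a grid of 100 bp. The deposited score is a whole number of at least 2 whose meaning is not given in the sources used here, and it served only to rank regions within a list.

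From these lists, widths, gaps, overlaps and distances were computed with Python 3.11.15, numpy 2.4.6 and pandas 2.3.3. Genes, TSSs and features were taken from GENCODE release 44 on hg19 (64449 genes, 20163 protein-coding, 220784 TSSs) and sequences from hg19. A centre was given to the first of promoter (3 kb upstream), 3 kb downstream, untranslated region, coding exon, non-coding exon, intron and intergenic. The scripts were tested on simulated regions. Genes were named by rule: the 8 with the most bases in each class around the canonical TSS (for both kinds, by the smaller length), up to 4 members per gene list, and KDM3A, KDM3B, JMJD1C, MYC, DKK1, CCND1 and AXIN2. A sequence, a gene and a gene list that these rules give are not reported here. A few overlaps were named after their values were seen. The members and the 28 gene lists were chosen with earlier results of these data known. A gene near the annotated positions of several others shares their regions. Figures were drawn with matplotlib 3.10.9. Alternatives were the 50% of regions with the highest score, merged regions, other windows and transcripts, an H3K9me2 list of 8046 regions, and strata of composition.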

Additional observations from a re-analysis of the deposited data

How the results depend on the processing

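No paired analysis was possible because there was 1 library per antibody and population. Of 70 recomputed values, 5 reversed, 49 moved beyond the interval of the value over all regions (counts of genes or chromosomes: by over 1.5 times) and 16 did neither. The cause was not tested. Only 1 order between the lists changed: with the 50% of regions of highest score in each list, 55.6% of KDM3B and 57.3% of H3K9me2 centres lay within 5 kb of a TSS (57.0% and 53.9% over all regions). With the same 50%, single windows made up 24.96% and 0.248%, promoters held 36.8% and 27.2%, H3K9me2 GC content was 62.2%, the chromosome 22 ratio of H3K9me2 to KDM3B shares was 2.999 (2.59 over all), 35.8% of KDM3B regions lay within 10 kb of H3K9me2 and 0.845% overlapped it, 1105 genes had KDM3B only and 912 both, with a ratio of H3K9me2 shares with to without KDM3B of 1.25 (1.20 over all), and the ratio at TSSs was 0.316 (0.401 over all). Score follows width, so this choice also selects wide regions.

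With regions less than 1 kb apart merged, H3K9me2 single windows were 36.6%, the chromosome 22 ratio 2.19 and overlaps 2.01%. With H3K9me2 shortened to the number of KDM3B regions, single windows were 0.0124%, 12.2% of KDM3B regions lay within 10 kb, and 3201, 672, 1959 and 14331 genes had KDM3B only, both, H3K9me2 only and neither (ratio 1.44). Promoters held 48.1% and 42.7% of KDM3B and H3K9me2 centres with 3 kb on both sides of a TSS, 20.02% and 5.62% with canonical transcripts only, and 41.4% and 27.4% by covered bases. Within 2 kb of a TSS were 42.6% and 34.7%, and within 5 kb of canonical transcripts 32.2% and 19.3%. GC content was 53.2% and 58.7% in 500-bp windows and 55.02% and 60.8% in single-window regions. An overlap of at least 50% of the KDM3B region was seen for 0.945%.

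Within 2 kb, 1349 genes had both (ratio 1.07), and with canonical TSSs 1201 (ratio 1.01). Chosen after seeing the data, quintiles by GC content turned this ratio to 0.524, 0.632, 0.715, 0.851 and 0.958. The ratio at TSSs was also recomputed after seeing the data: it was 0.247 within 500 bp, 0.708 at TSSs that are not CpG-island-like, and 0.719, 0.188, 0.272 and 0.525 in the GC quintiles 1, 2, 3 and 5. It was below 1 in each setting tried, although the interval in quintile 1 reached 1.43. Depth was unknown and each side had 1 library, so neither the precision of a region nor the variation between replicates could be given, and a place without a listed region may hold signal below the threshold.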
